A study of Rattus norvegicus with 27 samples.

Results

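The mitochondrial uncoupling proteins and their transcriptional coactivator Ppargc1a were followed by microarray through 3 brain regions of diabetic and non-diabetic rats. The set holds 6 genes, namely Ucp1, Ucp2, Ucp3, Slc25a27, Slc25a14 and Ppargc1a. A probe belonged to the set when its gene name in the scanner output was one of these. By this rule 7 of the 41012 non-control probes were members and covered 5 genes. Of these, 3 target Slc25a27 and therefore measure a single gene. No probe carried the name Slc25a14, so that gene was not analysed here. The genes were selected on measured values of these same arrays, since the study itself had picked Ucp2 from the contrast of Goto-Kakizaki with control hippocampus. All differences of Ucp2 between Goto-Kakizaki and control rats are therefore given as a description, with no p-value, and nothing is read from a call that rests on that contrast. This rule uses names only and has no threshold, so there are no probes just inside or outside it.

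RNA came from the hippocampus, prefrontal cortex and striatum of male rats 10 weeks of age, and each region was dissected from 9 rats of each kind. By the paper's account the regions came from the same 9 rats per group, while the tests below treat all 27 arrays as independent. Whether equal pool numbers hold the same rats is not stated in the labels. The controls were Wistar rats, for which no injection is stated, with an average blood sugar of 7.64 mmol/l. The type 1 model consisted of Wistar rats given streptozotocin, a toxin of the insulin-producing beta cells, into the tail vein at 6 weeks of age (65 mg/kg). It was profiled 4 weeks later, with an average blood sugar of 26.34 mmol/l, and only rats above 15 mmol/l had been kept. The type 2 model was the Goto-Kakizaki rat, a non-obese strain with polygenic diabetes, at 13.9 mmol/l. Goto-Kakizaki rats differ from Wistar rats by strain as well as by diabetes, and these cannot be told apart. No group of Wistar rats injected with the citrate solvent alone was analysed here. Each array held pooled RNA of 3 rats, so every region and animal group is represented by 3 arrays, 27 in all, and p-values refer to the spread between pools.

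Uncoupling proteins are carriers of the inner mitochondrial membrane. Ucp1 lets protons leak back into the matrix and thereby turns the energy of respiration into heat in brown fat. Ucp2 is widely expressed, including in microglia and in some neurons, and Ucp3 is best known from skeletal muscle, where it responds to fatty acids and fasting. Slc25a27 (UCP4) and Slc25a14 (UCP5 or BMCP1) are the family members typical of the brain. Ppargc1a (PGC-1alpha) coactivates nuclear receptors and is known as a master regulator of mitochondrial biogenesis, of antioxidant enzymes and of uncoupling protein genes. Ucp2 and Ucp3 lie next to each other on rat chromosome 1, with no gene listed between them in RefSeq (assembly GRCr8).

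The probe sequences are shown because each value below is the brightness of a single 60-base oligonucleotide. Of the 7 probes 4 are printed whole, and of the other 3 the first 30 bases. Their positions within the transcripts were not analysed here.
Ucp2, A_44_P301608: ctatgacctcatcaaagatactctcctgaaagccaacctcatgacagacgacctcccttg
Ucp3, A_44_P289183, first 30 bases: caggactcggaatctttagggaattgttag
Ucp1, A_42_P614984: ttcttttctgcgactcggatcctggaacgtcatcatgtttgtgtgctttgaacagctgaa
Ppargc1a, A_44_P305482: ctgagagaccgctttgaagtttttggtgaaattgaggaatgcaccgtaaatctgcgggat
Slc25a27, A_44_P407334: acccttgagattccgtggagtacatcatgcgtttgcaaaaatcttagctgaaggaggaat
Slc25a27, A_44_P320839, first 30 bases: tatatatgtagcctatattatgtgcttaag
Slc25a27, A_44_P487123, first 30 bases: tgtcacaagaagactttgtagtgctttgga
The longest run of bases that any of the 7 probes shared with another was 8, so none of them repeats the sequence of another member. The third Slc25a27 probe was designed on a separate transcript record and had no match in RefSeq, whereas the other 6 probes matched the RefSeq record of their gene.

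Values are log2 processed signals relative to the 75th percentile of the array, which ranged from 690.3 to 1527 scanner units. The scanner called 67.4 to 75.3% of probes well above background, and no member spot was saturated or marked as an outlier. Ucp2, Ppargc1a and the 3 Slc25a27 probes were well above background on 27 of 27 arrays, Ucp3 on 12 and Ucp1 on 6. For Ucp3 10 of the 27 values, and for Ucp1 3, were surrogates, which the scanner software enters in place of a measured signal. Of 9 striatal marker genes, 9 were called higher in control striatum than in both other regions. Of 8 hippocampal markers, 5 were called higher in control hippocampus than in prefrontal cortex and 6 higher than in striatum. Of 3 prefrontal cortex markers tested, 2 were called higher in prefrontal cortex than in each of the other regions. The control pools of the prefrontal cortex differed in striatal markers, whose summed level (in multiples of the 75th percentile) was 24.1, 12.1 and 35.0 against 13.3 to 16.2 in the pools of both models. Of these 9 markers, 6 were called higher in control prefrontal cortex than in hippocampus (5.16% of all probes were called). In Goto-Kakizaki against control prefrontal cortex, 4 were called lower (2.50% of all probes were called). Among these, Pde10a was also called lower than control in Goto-Kakizaki hippocampus and striatum (-2.11 and -1.83), so it is not particular to the prefrontal pools. In streptozotocin against control prefrontal cortex, Adora2a and Rgs9 were called lower (-1.73 and -1.76), where 0.980% of all probes were called. The part of the striatal marker difference in the prefrontal values below, of either model, was not tested. The arrays were scanned on 7 slides. On slides 5 to 7, unlike the other 4, arrays departed from their group means in the same direction (mean correlation between groups 0.47, 0.65 and 0.48, against 0.01 to 0.04).

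Throughout, a probe was called when its Benjamini-Hochberg adjusted p over all tested probes (limma, 9 group means) was below 0.05 and its change was at least 2-fold. A probe had to be well above background on 2 of 3 arrays of a group of the region to be tested. All 7 member probes were tested in the striatum and 6 in the other regions, where Ucp1 was too dim. Streptozotocin against control called 1 member probe in each region, and it was Ucp3 every time. In hippocampus and striatum Ucp3 met the filter only through the streptozotocin arrays, where it was high, so these calls are no support in themselves. The background shares of all probes called were 0.639% in hippocampus, 0.980% in prefrontal cortex and 0.866% in striatum. Goto-Kakizaki against control called 1 member probe in hippocampus, Ucp2, which says nothing since that contrast picked it (1.92% of all probes), and 0 in prefrontal cortex (2.50%) and in striatum (3.09%). Goto-Kakizaki against streptozotocin called 1 member probe in each region, again Ucp3 (2.76%, 3.53% and 4.94% of all probes). The same limit of the filter holds for these calls in hippocampus and striatum.

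**Figure D1:**
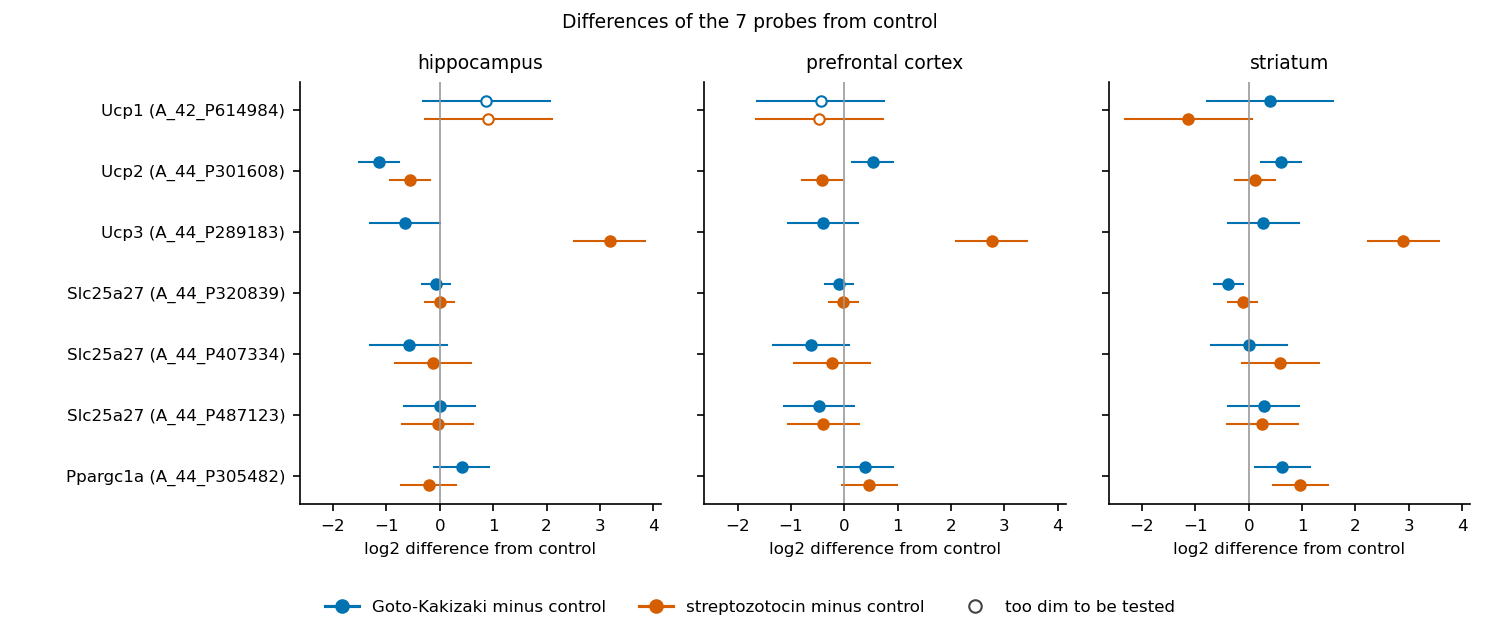
Log2 difference from control (horizontal axis) of each of the 7 probes in the 3 regions, with lines for the 95% confidence interval of the limma fit. Filled points were tested and open points were too dim. Ucp3 in streptozotocin rats stands 2.76 to 3.18 above control in every region, with intervals from 2.10 to 3.85, while Ucp2 in Goto-Kakizaki rats lies below control in hippocampus and above it in the other regions.

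Ucp3, the muscle-type uncoupling protein, was the member with the largest differences. In control hippocampus its 3 arrays read -6.87, -8.19 and -6.94, and in Goto-Kakizaki hippocampus -8.16, -8.12 and -7.68. None of these 6 arrays was well above background, and the values of control pool 2 and of every Goto-Kakizaki pool were surrogates. The hippocampi of streptozotocin rats read -4.11, -3.87 and -4.47, all well above background and without overlap with either other group. The fitted difference from control was 3.18 ± 0.32 (SE, limma, adjusted p = 4.08e-06). As the controls were at background, only a bound is given, of at least 3.17-fold. Such a bound sets the mean of the bright group against the detection floor of each dim array, or against the dim probe itself where that was higher. The floor is the weakest signal that the scanner still called well above background. All such bounds leave out the error of the bright mean and depend on the scanner's background subtraction. Here the hippocampal differences without subtraction and under another background correction, given below, were smaller than the bound's log2 value of 1.66.

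In the prefrontal cortex Ucp3 could be seen in part of the controls too. Control arrays read -5.65, -6.17 and -5.25, with 2 of 3 well above background, and Goto-Kakizaki arrays -5.94, -6.47 and -5.86, with 1 of 3. Streptozotocin arrays read -3.06, -2.48 and -3.25, above every array of the other groups. The difference from control was 2.76 ± 0.32, a 6.78-fold rise (SE, limma, adjusted p = 3.86e-05). Control and streptozotocin arrays with the same pool number shared a slide here, and the difference within the 3 slides was 3.69, 2.00 and 2.59. The call ended when the compared groups were fitted alone (adjusted p = 0.0531) and, as in the other regions, under the methods' t-test (adjusted p = 0.219).

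In the striatum Ucp3 read -8.13, -7.68 and -7.97 in controls and -7.50, -7.40 and -8.06 in Goto-Kakizaki rats, none of them well above background. All of these values were surrogates, so the fit rests in part on substituted signals. The streptozotocin arrays read -4.83, -5.44 and -4.81, all well above background. The fitted difference from control was 2.90 ± 0.32 (SE, limma, adjusted p = 1.63e-05), or at least 1.49-fold by the floor of the control arrays. No slide held streptozotocin together with control arrays of the hippocampus or of the striatum, so slide and group cannot be told apart there.

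Because log2 values near background stretch small differences, the spot brightness before any subtraction is also given. In hippocampus it was 85.4, 82.6 and 78.8 scanner units in controls against 150.4, 188.7 and 140.4 in streptozotocin rats. In prefrontal cortex it was 106.3, 88.0 and 117.1 against 265.0, 274.4 and 251.0, and in striatum 80.7, 72.8 and 73.0 against 112.4, 102.8 and 130.8. The groups did not overlap in any region, while the local background around all Ucp3 spots was 28.5 to 38.0. Fitted on this uncorrected scale, the differences were 0.79, 1.43 and 0.75 (adjusted p = 0.0117, 1.83e-05 and 0.0129). All 3 passed the test, but in hippocampus and striatum they were under 2-fold and thus no longer called. Under normexp background correction, which models the background instead of using the scanner's, the differences were 0.91, 1.74 and -0.31 and the calls ended in all 3 regions (adjusted p = 1.00, 0.355 and 0.716).

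**Figure D2:**
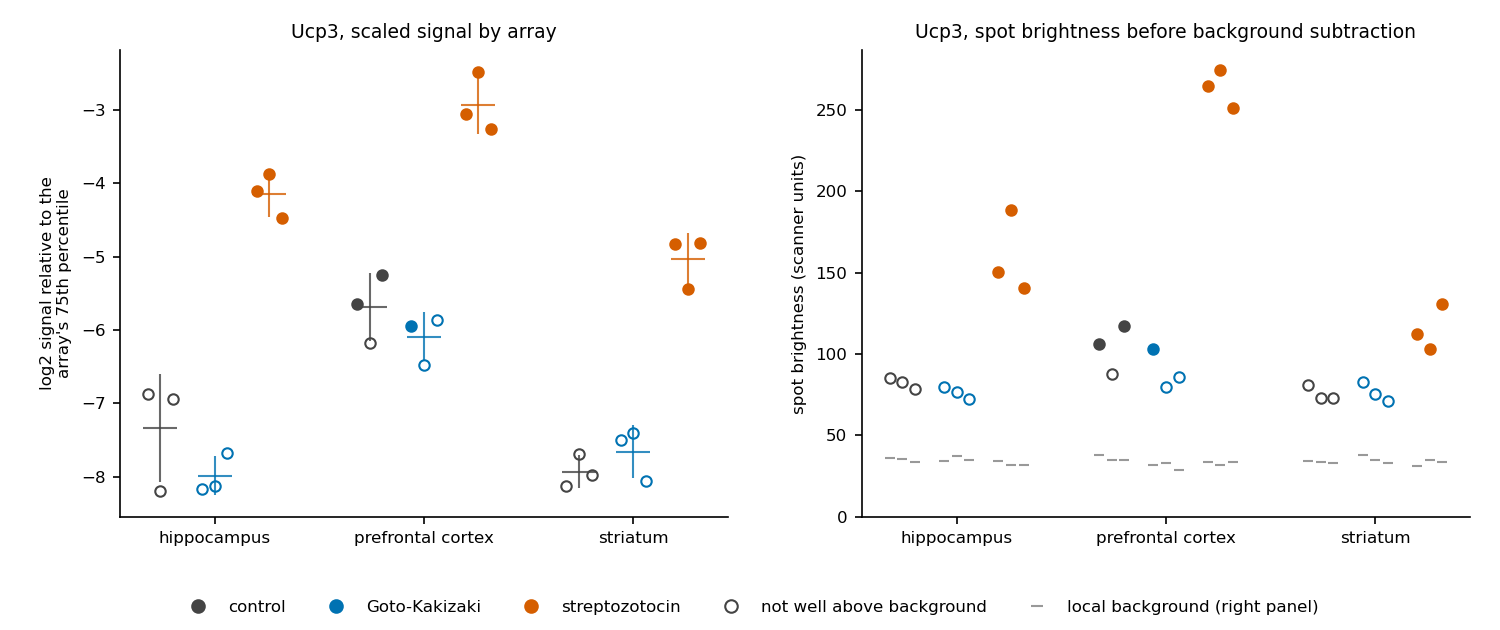
Ucp3 on each of the 27 arrays, by region and animal group. The left panel gives log2 signal relative to the 75th percentile of the array with group mean and SD, and the right panel the spot brightness in scanner units from 0, with the local background as dashes. Open points were not well above background. All 9 streptozotocin arrays were well above background and lay above the control and Goto-Kakizaki arrays of their region on both scales.

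Ucp3 was also lower in the Goto-Kakizaki than in the streptozotocin rats. Goto-Kakizaki minus streptozotocin was -3.83, -3.16 and -2.63 on the log2 scale in hippocampus, prefrontal cortex and striatum (SE 0.32, limma, adjusted p = 4.37e-08, 7.07e-07 and 9.30e-06). The first amounts to at least 2.85-fold and the last to at least 1.23-fold, while in prefrontal cortex 1 of 3 Goto-Kakizaki arrays was above background. In hippocampus and striatum Ucp3 was tested only through the streptozotocin arrays, where it was high, so these calls are no support in themselves. The striatal call ended on the uncorrected scale (-0.33, adjusted p = 0.179). These contrasts share the streptozotocin arrays with those against control. No slide held arrays of both models from the same region, so slide and model cannot be told apart. Between Goto-Kakizaki and control rats, Ucp3 counted as tested in hippocampus and striatum only through the streptozotocin arrays. In these regions 0 of 6 arrays of the compared groups were above background, so no difference is read. In prefrontal cortex 3 of 6 were, and the difference was -0.40 ± 0.32 (SE, limma, adjusted p = 0.531).

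Among the controls, Ucp3 read highest in prefrontal cortex. Prefrontal cortex minus hippocampus was 1.64 ± 0.32, and striatum minus prefrontal cortex was -2.24 ± 0.32 (SE, limma, adjusted p = 0.000778 and 1.47e-05). Ucp3 entered both tests only through control prefrontal cortex, where it was high, so these calls are no support in themselves. The floor allows only at least 1.09-fold for the prefrontal difference from hippocampus and no bound for that from striatum. Neither passed on the uncorrected scale (adjusted p = 0.507 and 0.180). The order within the streptozotocin rats was prefrontal cortex, hippocampus, striatum, with no overlap between neighbours, whereas the lowest streptozotocin group, striatum, overlapped the prefrontal cortex of controls. The streptozotocin effect was not tested for a difference between regions.

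Since Ucp3 is typical of muscle, muscle markers were read on the same arrays. Of 3 such genes on the array, Ckm (muscle creatine kinase) was well above background on 0 of 27 arrays, Acta1 (skeletal alpha-actin) on 27 and Myh4 (a fast myosin heavy chain) on 20. Their summed level, relative to the 75th percentile, was 0.151 to 0.157 in streptozotocin hippocampus against 0.146 to 0.154 in control. It was 0.222 to 0.230 against 0.166 to 0.216 in prefrontal cortex and 0.190 to 0.204 against 0.133 to 0.286 in striatum. Of the 2 muscle genes tested, 0 passed in these 3 comparisons. Of the 4 fat-cell genes on the array, Fabp4 was well above background on 3 streptozotocin arrays of the hippocampus, on 2 of the striatum and on no other array. Fabp4 was called higher than control in streptozotocin hippocampus and striatum, by 1.82 and 1.39 (limma, adjusted p = 0.00291 and 0.0189). Of all probes 0.639% and 0.866% were called there. Fabp4 met the filter only through the streptozotocin arrays, so these calls are no support in themselves. The median difference of the fat genes tested was -0.08 in hippocampus and -0.20 in striatum. Whether other cells in the dissected tissue have a part in the Ucp3 signal was not tested. In pooled tissue, fewer cells of a type and less RNA per cell cannot be told apart.

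Ucp2 was measured well above background on every array. Control hippocampus read -0.79, -0.92 and -0.85, the highest group of all 9 and without overlap with the next. Goto-Kakizaki hippocampus read -2.12, -1.88 and -1.97, entirely below control, and streptozotocin hippocampus lay between the former groups at -1.35, -1.77 and -1.12. Goto-Kakizaki minus control was thus -1.14 ± 0.18 (SE) in hippocampus, a 2.21-fold difference in the contrast that chose the gene. It was -0.98 both on the uncorrected scale and under normexp correction, just under 2-fold. Choroid plexus, which can be dissected with the hippocampus, varied between these pools. The summed level of its 8 markers was 2.97, 3.19 and 128.2 in controls, 160.1, 21.6 and 111.6 in Goto-Kakizaki rats and 3.48 to 4.03 in streptozotocin rats. Control pool 3, with high markers, read -0.85 for Ucp2, between the other control pools, and the difference without it was again -1.14. Without that pool every control pool lay below every Goto-Kakizaki pool in these markers, so choroid plexus and strain cannot be told apart. Between the models, 6 of the 8 markers were called higher in Goto-Kakizaki hippocampus (2.76% of all probes were called). The part of choroid plexus in the hippocampal Ucp2 differences, from control and between the models, was not tested. On slide 2, which held 1 Goto-Kakizaki and 2 control arrays of the hippocampus, the difference was -1.30.

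The other regions went the opposite way. In prefrontal cortex, control arrays read -2.11, -2.13 and -1.91 and Goto-Kakizaki arrays -1.72, -1.44 and -1.40, with no overlap and a difference of 0.53 ± 0.18 (SE). The Goto-Kakizaki arrays lay on slides 1 and 3 and the controls on slides 5 to 7, so slide and group cannot be told apart here. In striatum, control arrays read -1.71, -2.28 and -1.98 and Goto-Kakizaki arrays -1.67, -1.01 and -1.48, again without overlap, with a difference of 0.60 ± 0.18 (SE). Neither reached 2-fold. In striatum it was 0.33 on slide 4, the only one with both groups (3 Goto-Kakizaki arrays and 1 control), and 0.41 to 0.75 when single arrays were left out. The Goto-Kakizaki difference of the hippocampus minus that of the prefrontal cortex was -1.67 ± 0.26, and minus that of the striatum -1.74 ± 0.26 (SE). Both contain the contrast that chose Ucp2, so nothing is read from its being the 1 member probe called in each (0.190% and 0.347% of all probes). Prefrontal cortex and striatum differed by -0.07 ± 0.26 in this respect, and 0 members were called there (0.118% of all probes).

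**Figure D3:**
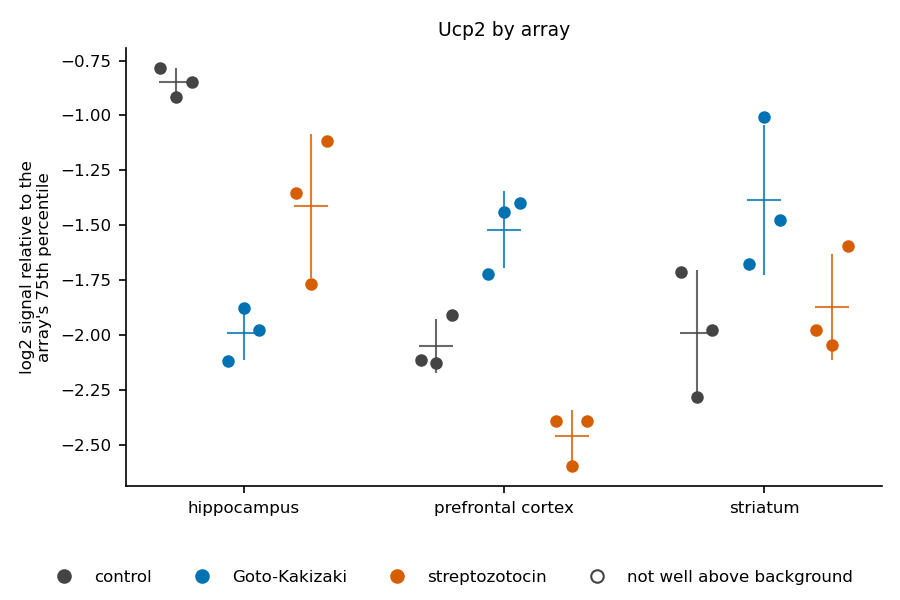
Ucp2 on each array (points, log2 signal relative to the 75th percentile of the array) with group mean and SD. The 3 control arrays of the hippocampus, from -0.92 to -0.79, lie above all others. Goto-Kakizaki arrays lie below control in hippocampus and above control in prefrontal cortex and striatum.

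Streptozotocin changed Ucp2 past the threshold in no region. The difference from control was -0.56 ± 0.18 in hippocampus, -0.41 ± 0.18 in prefrontal cortex and 0.12 ± 0.18 in striatum (SE, limma, adjusted p = 0.115, 0.266 and 0.743). The hippocampal value uses the control arrays of the contrast that chose the gene. Neither its p-value nor the lack of overlap given next is therefore read as support. In hippocampus and prefrontal cortex the streptozotocin arrays nevertheless did not overlap with control, and in the latter they read -2.39, -2.60 and -2.39 and were lower on each of 3 shared slides (-0.47, -0.48 and -0.28). The striatal arrays of streptozotocin rats read -1.98, -2.05 and -1.59, among the controls. Between the models, Ucp2 was higher in Goto-Kakizaki than in streptozotocin prefrontal cortex by 0.94 ± 0.18 (SE, limma, adjusted p = 0.00132). At this test alone, 15.8% of all probes passed in that comparison, and 2 member probes, Ucp2 and Ucp3. The corresponding differences were -0.58 in hippocampus and 0.49 in striatum (adjusted p = 0.0507 and 0.0673). The first uses the Goto-Kakizaki arrays of the contrast that chose the gene, so nothing is read from its p-value.

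The regional order of the Ucp2 means is given for each kind of animal as a description. In control and Goto-Kakizaki rats it rests on hippocampal arrays of the contrast that chose the gene, and regions were not tested within either model. In controls, hippocampus stood highest, with prefrontal cortex minus hippocampus at -1.20 and striatum minus hippocampus at -1.14 (SE 0.18), using the control arrays of the contrast that chose the gene. In Goto-Kakizaki rats, hippocampus had the lowest mean (-1.99), below prefrontal cortex (-1.52) and striatum (-1.39), with no array in common with the ranges of either. In streptozotocin rats hippocampus again had the highest mean (-1.41), then striatum (-1.87) and prefrontal cortex (-2.46). There hippocampus (-1.77 to -1.12) and striatum (-2.05 to -1.59) overlapped. Streptozotocin prefrontal cortex was the lowest of all 9 groups and did not overlap with the next, whereas each of the groups ranked 2 to 7 overlapped with the one after it.

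Microglia are a known site of Ucp2 expression, and all 12 microglial markers were well above background in every group. Their summed level was 47.3 to 50.8 in Goto-Kakizaki and 38.2 to 49.2 in control hippocampus, 66.9 to 80.3 against 51.7 to 57.4 in prefrontal cortex and 73.5 to 118.1 against 54.3 to 60.6 in striatum. In Goto-Kakizaki hippocampus 2 of the 12 markers were called lower, Itgam and Tmem119, and 0 higher (1.92% of all probes were called). With no fold limit, 3 markers of the complement C1q group passed as higher in prefrontal cortex (8.80% of all probes passed), and these and Cd68 in striatum (13.8%). In streptozotocin rats the sum was 42.7 to 55.7 in hippocampus, 50.5 to 59.8 in prefrontal cortex and 68.7 to 79.9 in striatum, with Tmem119 called lower in prefrontal cortex and C1qc passing as higher in striatum. The part of microglia in the Ucp2 values was not tested.

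Ppargc1a, the coactivator, was well above background on every array. In striatum, controls read -2.73, -3.82 and -3.20 and streptozotocin rats -2.30, -2.31 and -2.25, so that all streptozotocin pools lay above all controls. The rise of 0.96 ± 0.25 passed the test (SE, limma, adjusted p = 0.0361) but at 1.95-fold was just under the limit for a call. Here 3.25% of all probes and 2 of the 7 member probes, Ucp3 and Ppargc1a, passed the test with no fold limit. This result was weak. It failed the test in 5 of 6 fits that left out a striatal array, reaching 0.68 (adjusted p = 0.135) without control pool 2, and rose to 1.22 without control pool 1. Under normexp correction it was -0.07.

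Elsewhere no Ppargc1a difference passed. Streptozotocin arrays of the prefrontal cortex read -2.45, -2.56 and -2.55 against -2.87, -2.87 and -3.22 in controls, with no overlap, a difference of 0.47 ± 0.25 and adjusted p = 0.391 (SE, limma). On the 3 slides shared by these groups the difference was 0.31, 0.67 and 0.42. In hippocampus, streptozotocin rats read -3.10, -2.93 and -2.82 and controls -3.14, -2.66 and -2.43, which overlap. Goto-Kakizaki arrays read -2.31, -2.28 and -2.41 in hippocampus, -2.15, -2.62 and -3.02 in prefrontal cortex and -2.40, -3.13 and -2.33 in striatum. Their differences from control were 0.41, 0.39 and 0.63 (SE 0.25, adjusted p = 0.487, 0.400 and 0.0974), with 95% intervals reaching from -0.13 to 1.15. The control regions followed the order hippocampus, prefrontal cortex, striatum, and neighbours overlapped. Of all 9 groups, streptozotocin striatum had the highest mean and overlapped with the next, Goto-Kakizaki hippocampus.

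**Figure D4:**
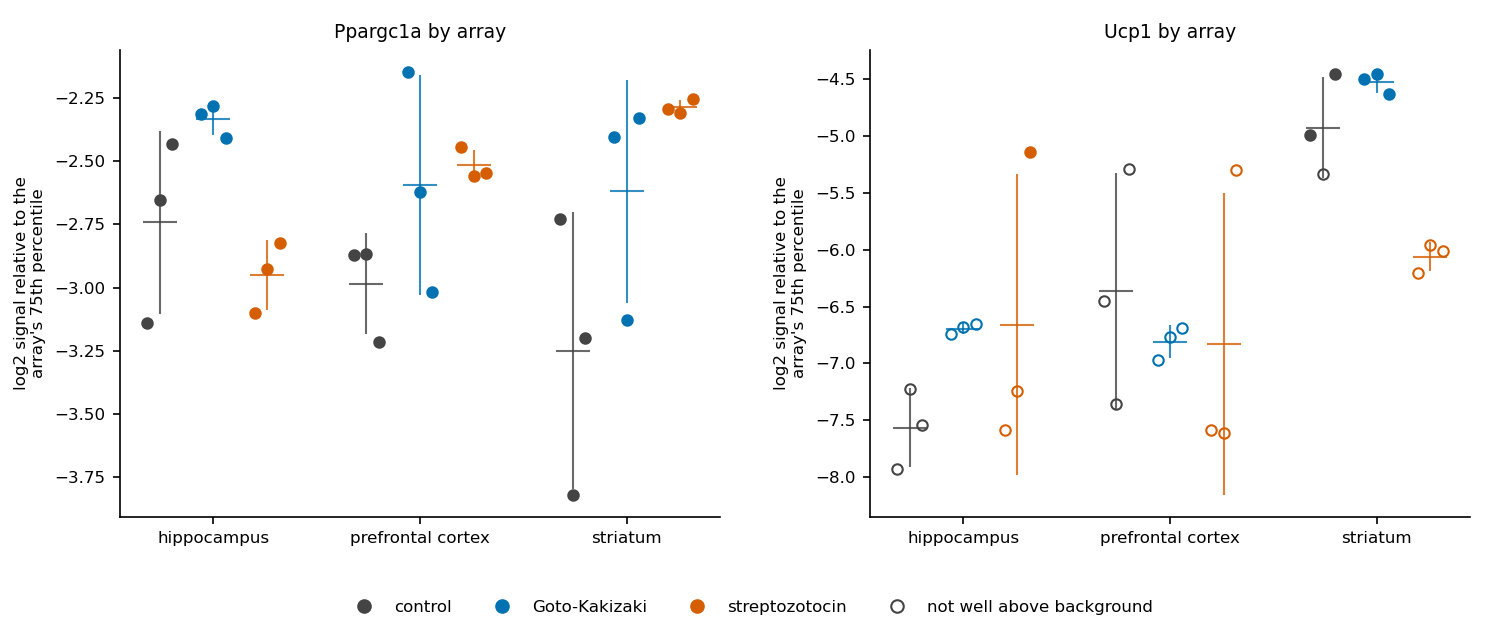
Ppargc1a (left) and Ucp1 (right) on each array, as log2 signal relative to the 75th percentile, with group mean and SD. Open points were not well above background. The 3 striatal streptozotocin arrays of Ppargc1a sit between -2.31 and -2.25, above the striatal controls, whose own range was -3.82 to -2.73. For Ucp1 only striatal arrays and 1 hippocampal array are filled.

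Slc25a27, the neuronal UCP4, was read by 3 probes that agreed only in part. Over the 27 arrays, A_44_P407334 and A_44_P487123 had a Pearson correlation of 0.77, while A_44_P320839 correlated with them at 0.43 and 0.32 (across arrays of 9 groups, as a description). For A_44_P320839 the groups split by region. Its 9 striatal arrays ranged from 0.32 to 1.10 and its 18 other arrays from 1.17 to 1.67, so the 2 sets did not overlap. Control striatum, with 0.58, 0.76 and 1.10, differed from control hippocampus (1.31, 1.20 and 1.44) by -0.50 ± 0.13. It differed from control prefrontal cortex (1.44, 1.52 and 1.67) by -0.73 ± 0.13 (SE, limma, adjusted p = 0.00483 and 0.000169).

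The other probes pointed the same way without passing. Control striatum minus hippocampus was -0.88 for A_44_P407334 and -0.59 for A_44_P487123 (adjusted p = 0.0576 and 0.176), and striatum minus prefrontal cortex -0.75 and -0.60 (adjusted p = 0.121 and 0.192). Hippocampus and prefrontal cortex were not told apart by any of the 3 probes (differences -0.13 to 0.23, adjusted p from 0.276 to 0.991).

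Neither model changed Slc25a27 past the threshold. For A_44_P320839 the streptozotocin difference was -0.00 in hippocampus, -0.02 in prefrontal cortex and -0.11 in striatum, with 95% intervals within -0.38 and 0.27. The nearest to the threshold was Goto-Kakizaki striatum, whose arrays read 0.32, 0.42 and 0.56, lower than all 3 controls, with a difference of -0.38 ± 0.13 (SE, limma, adjusted p = 0.0535). On slide 4 it was -0.15. For the other probes that striatal difference was 0.01 and 0.28. These 2 probes also spread more within groups, with control striatum reading -1.63, -2.96 and -1.66 by A_44_P407334, so only larger changes could have been detected with them. Their deviations from the group means also followed those of Ppargc1a (Pearson correlation 0.61 and 0.51 over 27 arrays), against -0.10 for A_44_P320839.

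**Figure D5:**
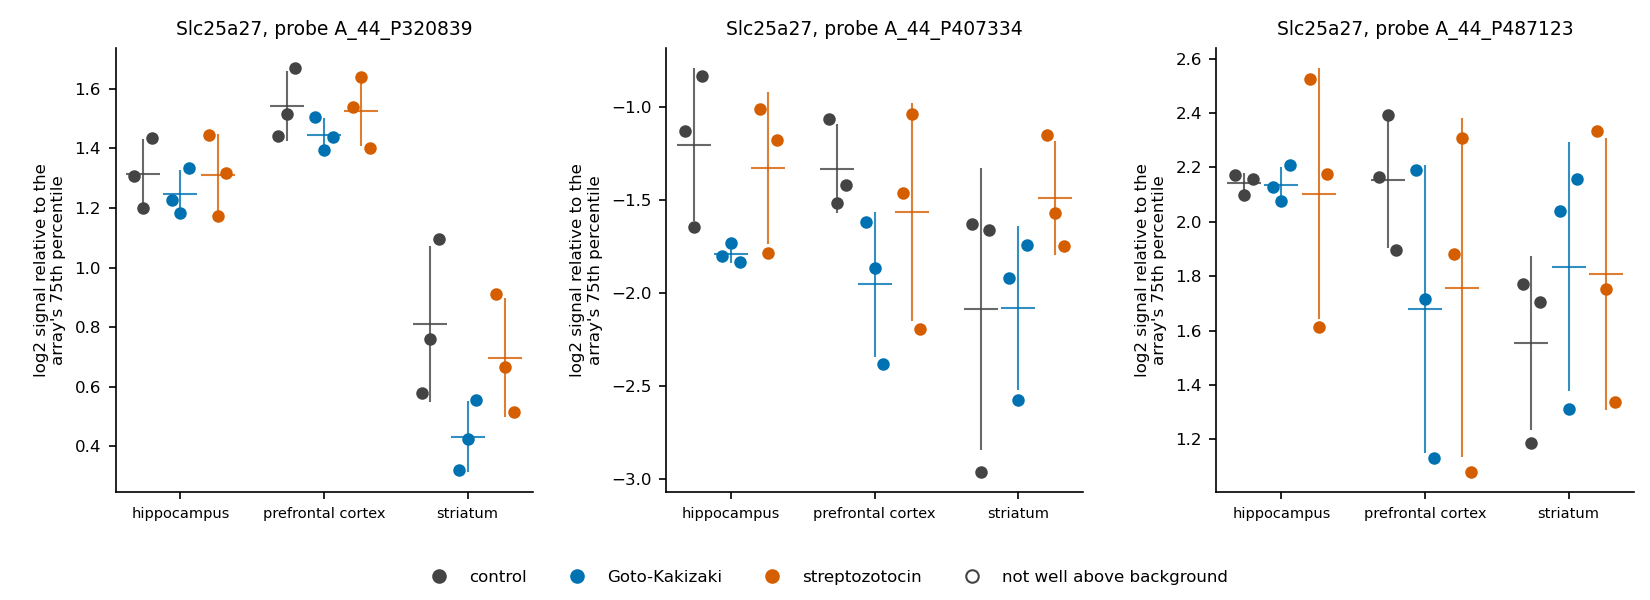
The 3 Slc25a27 probes on each array, as log2 signal relative to the 75th percentile of the array, with group mean and SD and a separate axis for each probe. By A_44_P320839 all striatal arrays, up to 1.10, lie below all others, from 1.17, which the other probes do not show.

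Ucp1, the brown fat protein, was near background. Of the 27 arrays 6 were well above it, namely 3 Goto-Kakizaki and 2 control arrays of the striatum and 1 streptozotocin array of the hippocampus. Control striatum read -4.99, -5.34 and -4.46, Goto-Kakizaki striatum -4.50, -4.45 and -4.63 and streptozotocin striatum -6.20, -5.96 and -6.01, none of the last above background. The streptozotocin difference of -1.13 ± 0.57 (SE) did not pass (limma, adjusted p = 0.298), nor did that of Goto-Kakizaki from control, 0.40 ± 0.57 (adjusted p = 0.684). Control hippocampus read -7.93, -7.23 and -7.54, and control striatum was at least 1.85-fold above it (limma, adjusted p = 0.00125). Only the striatal arrays, where Ucp1 was higher, brought it past the filter. The call ended under normexp correction (1.54, adjusted p = 0.0753), and on the uncorrected scale the difference was 0.49, under 2-fold (adjusted p = 0.0150). On slide 6 the single arrays of control prefrontal cortex, streptozotocin prefrontal cortex and streptozotocin hippocampus read -5.29, -5.30 and -5.14, while the other arrays of these groups lay at -7.61 to -6.45. The control striatum array of that slide was also the highest of its group. Of 4 brown fat genes on the array, Cidea was well above background on 27 arrays, Dio2 on 25, Fabp4 on 5 and Adipoq on 3, and their part in the Ucp1 signal was not tested.

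Between the control regions, 2 member probes were called in prefrontal cortex against hippocampus, Ucp2 and Ucp3 (5.16% of all probes). Also 2 were called in striatum against hippocampus, Ucp1 and Ucp2 (8.97%), and 1, Ucp3, in striatum against prefrontal cortex (8.80%). Ucp1 and Ucp3 met the filter here only through the region where they were high. The Ucp2 calls use the control hippocampus arrays of the contrast that chose it, so nothing is read from these calls. With no fold limit, A_44_P320839 was added in both striatal comparisons, where 29.9% and 25.4% of all probes passed.

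The partners of Ppargc1a were counted from a list of 26 genes, of which 22 had a probe. Their list holds its relatives, the nuclear receptors and respiratory factors it acts on, and its upstream kinases and deacetylases. In 6 comparisons of a diabetic model with control, 0 of the 20 to 22 genes tested were called, and 0 passed with no fold limit. Over all probes, 0.639 to 3.09% were called in these comparisons, so 0 called is near that share. Background shares without the fold limit were 5.11%, 8.80% and 13.8% in Goto-Kakizaki hippocampus, prefrontal cortex and striatum. In streptozotocin rats they were 2.20 to 3.25%. The median difference of the list was -0.11 to 0.07, against -0.04 to 0.02 over all probes. The closest to the threshold was Prkaa1, a catalytic subunit of AMP-activated kinase, at -0.75 ± 0.22 in Goto-Kakizaki hippocampus (SE, limma, adjusted p = 0.0527). Ppargc1b, the nearest relative of Ppargc1a, differed by -0.13 to 0.53 (adjusted p from 0.216 to 0.938).

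Of 36 further carriers of the same SLC25 family, 23 had a probe and 20 to 22 were tested. Just 1 was called, in Goto-Kakizaki hippocampus, where 1.92% of all probes were called. This was Slc25a30, a near relative of Slc25a14 also known as KMCP1. It fell in Goto-Kakizaki hippocampus from -1.40 ± 0.10 to -2.47 ± 0.06 (SD, n = 3), a difference of -1.07 (adjusted p = 0.00197). It fell by 0.73 in Goto-Kakizaki prefrontal cortex and by 0.83 in striatum as well (adjusted p = 0.0259 and 0.00913), whereas streptozotocin differences were -0.08 to 0.05. A dimmer probe of Slc25a30, tested in hippocampus only, gave -0.48 (adjusted p = 0.418). With no fold limit, 1 rose and 1 fell in each of Goto-Kakizaki hippocampus and prefrontal cortex, and 0 rose and 2 fell in striatum. Of all probes 5.11%, 8.80% and 13.8% passed there. In streptozotocin rats 0 of these carriers passed.

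Of 23 genes of mitochondrial coupling, biogenesis and antioxidant defence, 22 were tested and 0 were called in any of the 6 comparisons. Over all probes, 0.639 to 3.09% were called, so 0 called is near that share and says nothing about these genes. Sod2, the mitochondrial superoxide dismutase, rose by 0.51 ± 0.14 in Goto-Kakizaki prefrontal cortex (SE, limma, adjusted p = 0.0214). Vdac1, the main pore of the outer membrane, rose by 0.89 ± 0.18 in Goto-Kakizaki striatum by its brightest probe (adjusted p = 0.00281), but its 2 other probes gave -0.31 and -0.22 there. Median differences of the list were -0.07 to 0.15.

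The genes whose signal followed each member most closely over the 27 arrays were read among 28353 probes tested in all 3 regions. For Ucp2 they were Supt6h, Epn2 and Ncdn (Pearson r 0.85, 0.83 and 0.82). For Ucp3 they were Katnal1, Chrna5 and Napsa (0.88, 0.87 and 0.85), and for Slc25a27, by A_44_P487123, Mapk8, Cdk12 and Mdn1 (0.88, 0.84 and 0.84). For Ppargc1a they were Myo9a, Bmpr2 and Cdc27 (0.95, 0.94 and 0.91). Ucp3 was well above background on only 12 of the 27 arrays and 10 of its values were surrogates, so its correlations mix measured and floor values. These arrays share regions, animals and slides, and the values are a description only.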

How the data were processed

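Agilent whole-genome rat arrays were hybridised by the authors with Cy3-labelled RNA, one colour per array, and scanned with Agilent Feature Extraction 9.1, per the labels. The deposited intensity values are processed signals (background-subtracted) and spot means per probe; the value table of the series equals the processed signals. The genome build behind the probes is not given in the sources used here. Signals were divided by the 75th percentile of each array over 41012 non-control probes and taken to log2. Spots marked as outliers were left out. Contrasts of 9 group means over 27 arrays were fitted with limma 3.58.1 (R 4.3.3) on 32077 probes, and p-values were Benjamini-Hochberg adjusted over the probes tested. The script was tested on simulated data. Members and lists were chosen with earlier results of these data known. List genes were counted by their brightest probe, and named were those called (up to 6 per list), else the one with the smallest p, plus Ppargc1b and Slc25a30. Equal pool numbers paired all arrays only for streptozotocin against control prefrontal cortex (shared slides, correlation of deviations 0.49, 0.48 and 0.72). In control striatum against prefrontal cortex, pools 2 and 3 also shared slides (0.55 and 0.60). Array number, not depth, limits precision.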

Additional observations from a re-analysis of the deposited data

Results flagged for a closer look

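The difference of Ucp2 between Goto-Kakizaki and control rats differed between regions. It was lower in hippocampus than in prefrontal cortex by -1.67 on the log2 scale (95% interval -2.20 to -1.14), and lower than in striatum by -1.74 (-2.28 to -1.21). In all 3 pools the hippocampal level lay below every control pool, and in the other regions above. Both values contain the hippocampal contrast by which the study had picked Ucp2, so no p-value is given. In fits that left out 1 of the arrays they ranged from -1.77 to -1.61 and from -1.89 to -1.56. The second was no longer called when its 4 groups were fitted alone, and neither was called under normexp correction (-1.45 and -1.07).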

How the results depend on the processing

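With normexp background correction, 0 member probes were called in Goto-Kakizaki against control hippocampus, in streptozotocin against control and in Goto-Kakizaki against streptozotocin in all 3 regions, in control striatum against either other region, and for the Goto-Kakizaki difference of hippocampus against prefrontal cortex or striatum. It left 1, Ucp2, in control prefrontal cortex against hippocampus. It also turned the sign of Ucp3 in streptozotocin striatum (-0.31) and in control striatum against prefrontal cortex (0.74), and of Ppargc1a in streptozotocin striatum (-0.069); the cause was not tested. Uncorrected spot brightness, chosen after seeing the data, gave 0 calls in Goto-Kakizaki hippocampus, streptozotocin hippocampus and striatum, Goto-Kakizaki against streptozotocin striatum and control striatum against either region, and 1 in control prefrontal cortex against hippocampus. The methods' t-test with adjustment gave 0 in streptozotocin against control in all regions, in Goto-Kakizaki against streptozotocin prefrontal cortex and striatum and in control striatum against prefrontal cortex, and 1 in both other control comparisons. Unadjusted, it gave 2 in striatum for streptozotocin against control and for Goto-Kakizaki against streptozotocin. With the compared groups alone there were 0 in streptozotocin prefrontal cortex and for the Goto-Kakizaki difference of hippocampus against striatum. In Goto-Kakizaki against streptozotocin striatum there were 2, Ucp1 and Ucp3, with the compared groups or the region alone, with array weights and without slide 6. Control striatum against prefrontal cortex had 2 with array weights, without slide 6 and with slide as a fixed block. Requiring 3 of 3 arrays above background left 1, 1 and 0 in the control comparisons of prefrontal cortex with hippocampus, striatum with hippocampus and striatum with prefrontal cortex. With no fold threshold there was 1 in Goto-Kakizaki striatum and 2 in streptozotocin striatum, Goto-Kakizaki against streptozotocin prefrontal cortex and control striatum against prefrontal cortex.

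Leaving out single arrays gave 1 to 2 calls in Goto-Kakizaki hippocampus (Ucp3, at background in both groups, was added without control pool 2) and 1 to 2 in streptozotocin striatum (Ppargc1a, without control pool 1). It gave 1 to 2 in Goto-Kakizaki against streptozotocin prefrontal cortex (Ucp2, without Goto-Kakizaki pool 1) and 1 to 2 in control striatum against prefrontal cortex (Ucp1, without prefrontal pool 3). In control striatum against hippocampus it gave 1 to 3, where Ucp2 was lost without striatal pool 2. The Ucp3 differences of streptozotocin from control kept their call in all these fits (2.76 to 3.41, 2.52 to 2.98 and 2.79 to 3.10). With the pool number as a replicate block, no count of members called changed, and the paired value of Ucp3 in streptozotocin prefrontal cortex was 2.76 (adjusted p = 0.000115). The number of arrays and the weak signal of Ucp1 and Ucp3 over background limit these results.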
